A study of Mus musculus with 6 samples.

Results

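The bin pairs described here join the chromatin on either side of the domain boundary at the mouse Sox9/Kcnj locus on chromosome 11 (mm9). Each pair has 1 bin in the centromeric-side stretch 110880001 to 111350000 and 1 bin in the telomeric-side stretch 111440001 to 111880000, with bin starts at most 500 kb apart. The bins are 10 kb long, and 861 of the 172578 bin pairs of the map met this rule. The 90 kb between the stretches, 111350001 to 111440000, holds the boundary bin (111380001 to 111390000) and the bin lost in the boundary deletion (111390001 to 111400000), so that neither enters a pair. The pairs used 41 bins on each side, and their bins were 100 to 500 kb apart. The pairs were chosen by measured values: the boundary, the domains and the stretches were placed with the same contact maps that are described here. The levels below are therefore given as a description, and no test was made.

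Capture Hi-C ligates DNA ends that are near each other in the nucleus, pulls down the ligation products of the locus of interest with probes, and sequences them. It was done on limb buds of mouse embryos at E12.5. There was 1 library for each of 6 genotypes. The boundary is missing in deltaBor and in Dup-LdeltaBor, and Dup-LdeltaBor also has the duplication of Dup-L. Dup-C, Dup-L and Dup-S have duplications from longest to shortest, with the boundary kept. WT is unaltered and was the control of 5 comparisons, and Dup-L was the control of Dup-LdeltaBor in 1 more. The sources used here give neither zygosity nor the orientation of the copies, the number of embryos pooled or the way the alleles were made.

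A topologically associating domain is a stretch of chromatin whose parts contact each other more often than they contact the neighbouring stretch, and a boundary is the place where such contacts drop. Boundaries in vertebrates are often bound by CTCF and cohesin, and they limit which enhancers can act on which promoters. Sox9, a transcription factor needed for cartilage and testis development, is controlled by enhancers spread over a large gene-poor region, and Kcnj2 and Kcnj16, which encode potassium channels, lie in the neighbouring domain. In the RefSeq gene table of the GRCm38 build, the order along the chromosome is Kcnj16, Kcnj2, Gm11675, Gm30158, Gm30219, Gm11677, Gm30337, Gm39461, BC006965 and Sox9. Between Kcnj2 and Sox9 this table lists 5 lncRNA genes, 1 protein-coding gene and 1 pseudogene. The build differs from that of the maps, so no gene was assigned to a bin.

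The libraries held 6337918 contacts in deltaBor, 8965219 in Dup-LdeltaBor, 4144258 in Dup-C, 8244295 in Dup-L, 5280553 in Dup-S and 7051882 in WT. Every comparison is between single libraries. The 95% intervals are exact (Poisson for a level, Clopper-Pearson for a fold), take contacts to be independent, and hold counting error alone. A contact count averages over cells, alleles and copies, so contact in more cells, more contact per cell and contact within or between the copies of a duplicated segment cannot be told apart.

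The 861 pairs crossing the boundary held 29408 contacts in deltaBor, 131032 in Dup-LdeltaBor, 29104 in Dup-C, 59888 in Dup-L, 11625 in Dup-S and 16013 in WT. As a share of all contacts of the library, that was 0.464% in deltaBor, 1.46% in Dup-LdeltaBor, 0.702% in Dup-C, 0.726% in Dup-L, 0.220% in Dup-S and 0.227% in WT. The share was thus nearly the same in Dup-S and WT, higher in deltaBor, higher again in both duplications that span the boundary, and highest where such a duplication lacks the boundary. This share is not corrected for the gained copies, and nearly all crossing pairs lie inside the segments gained in Dup-LdeltaBor, Dup-C and Dup-L. After the balancing described below, deltaBor lay above Dup-C and Dup-L. The median pair had 28 contacts in deltaBor, 141 in Dup-LdeltaBor, 32 in Dup-C, 67 in Dup-L, 12 in Dup-S and 17 in WT. Counts per pair ran from 17 to 523 in Dup-LdeltaBor and from 1 to 76 in WT, and 2 pairs had no contact in Dup-S.

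To take the decay of contacts with distance into account, each pair was set against a mean count of the same library. That mean was over pairs at the same distance with both bins inside the same domain. The domains were placed on the WT map and used for every library, also for those without the boundary. The centromeric-side domain was 110200001 to 111380000 and the telomeric-side domain 111390001 to 112650000, and 144 to 224 pairs stood behind each mean. A value of 1 in this observed-over-expected ratio means that 2 bins on opposite sides of the boundary had as many contacts as 2 equally distant bins of the same domain. The ratio was 0.492 in deltaBor (0.486 to 0.498), 0.982 in Dup-LdeltaBor (0.977 to 0.987), 0.552 in Dup-C (0.546 to 0.559), 0.538 in Dup-L (0.533 to 0.542), 0.179 in Dup-S (0.176 to 0.182) and 0.211 in WT (0.208 to 0.214). In WT the boundary thus went with about 1 contact for every 5 within a domain, and the single deletion or duplication left the pairs well short of the within-domain level. After KR (Knight-Ruiz) balancing by the authors, which gives all bins of a map equal sums, the ratio was 0.623 in deltaBor, 0.864 in Dup-LdeltaBor, 0.572 in Dup-C, 0.530 in Dup-L, 0.261 in Dup-S and 0.272 in WT. Both kinds of map had Dup-LdeltaBor highest and Dup-S and WT lowest, but the order of the 3 in between differed: deltaBor was the lowest of them on raw counts and the highest after balancing.

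The raw level of the duplication libraries depends on which pairs set the expectation, because all the pairs of Dup-C and all but 3 of Dup-L and Dup-LdeltaBor lie inside the gained segment, while part of each domain lies outside it. The segment gained in Dup-LdeltaBor and Dup-L ran from 110960001 to 112520000, that of Dup-C from 110770001 to 112520000, and that of Dup-S, on the telomeric side alone, from 111750001 to 112170000. With both the crossing pairs and the within-domain pairs limited to bins inside the Dup-L segment, the ratio was 0.473 in deltaBor, 0.652 in Dup-LdeltaBor, 0.421 in Dup-C, 0.396 in Dup-L, 0.150 in Dup-S and 0.200 in WT. On these bins, all inside the gained segments of Dup-LdeltaBor, Dup-C and Dup-L, deltaBor again lay above Dup-L and Dup-C, as after balancing, and Dup-LdeltaBor lay below the within-domain level. With the expectation taken from the centromeric-side domain alone, the Dup-LdeltaBor ratio was 1.81, and with the telomeric-side domain alone it was 0.693. The near-equality of the Dup-LdeltaBor pairs with within-domain pairs in the raw map therefore held with both whole domains as expectation, and not with the Dup-L segment or with either domain alone.

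**Figure D1:**
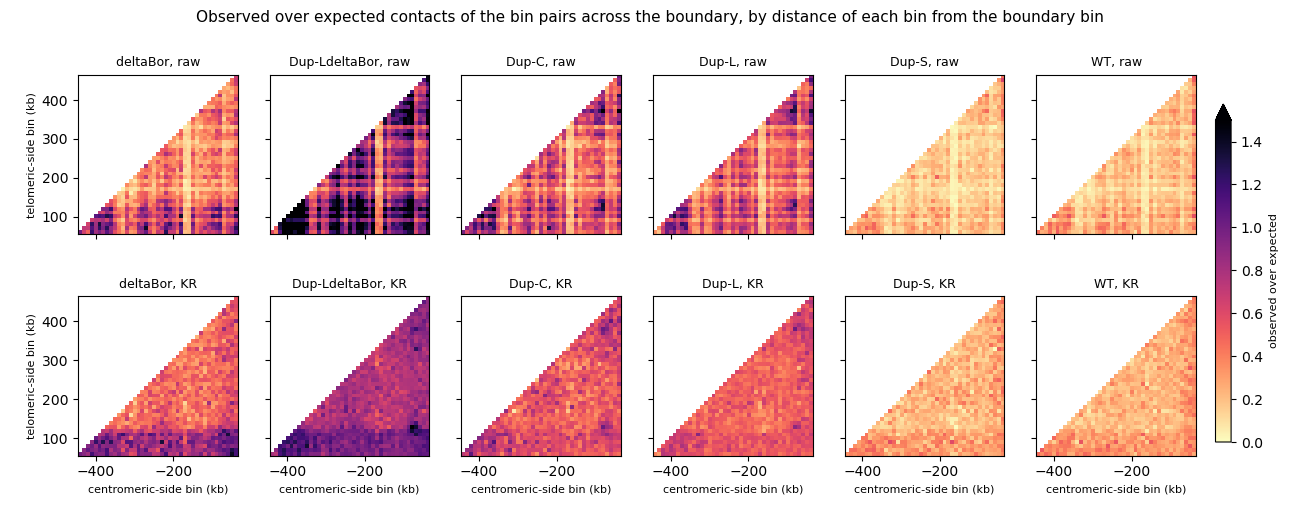
Observed-over-expected ratio of every pair crossing the boundary, in raw counts (top row) and KR-balanced signal (bottom row), with 1 panel per library; each axis gives the distance of a bin from the boundary bin in kb, and colour runs from 0 to 1.5, with higher ratios at the darkest colour. Dup-S and WT are pale throughout, Dup-L and Dup-C are evenly intermediate after balancing, and in deltaBor and Dup-LdeltaBor a dark band covers the telomeric-side bins up to 120 kb from the boundary bin.

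Deletion of the boundary alone, the comparison of deltaBor with WT, gave a ratio 2.33-fold that of WT (2.29 to 2.38), and 2.29-fold after balancing. Of the 778 pairs with at least 20 contacts in both libraries together, 681 were at least 1.5-fold higher in deltaBor, and 768 were above 1-fold; without that minimum it was 739 of 861. Among all pairs of the map at these distances with that many contacts, the crossing pairs included, 7.02% were at least 1.5-fold higher. A single pair was at least 1.5-fold lower, against 4.52% of all pairs. In the balanced maps 671 were higher and 1 lower, beside 8.4% and 3.36% of all pairs. The median pair was 2.26-fold that of WT, beside 1.01-fold for the median of all pairs. In deltaBor 49 of the 861 pairs reached a ratio of 1, and in WT 0 did, beside 29.1% and 28.7% of all pairs at these distances. In the balanced maps 63 did in deltaBor and 0 in WT, beside 40.8% and 37.9%.

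The gain in deltaBor was uneven along the telomeric side. The largest folds over WT among telomeric-side bins were 2.99 at the bin 120 kb from the boundary bin (111500001 to 111510000), 2.93 at 90 kb and 2.84 at 130 kb. The smallest were 1.59 at 340 kb, 1.67 at 280 kb and 1.71 at 240 kb. All 32 bins on each side with at least 10 pairs were above 1-fold, so the gain covered both stretches, and on the telomeric side it was largest near the boundary. On the centromeric side the largest fold was 3.39 at 340 kb (2.63 to 4.39). It came from 11 pairs of a bin with 42.1% of the contacts of the median bin in WT. The next largest was 2.79 at 230 kb (2.45 to 3.19), so the intervals overlap. The smallest was 1.88 at 40 kb, the bin nearest to the boundary, which had the highest WT level of that side (0.369).

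In the balanced deltaBor map, the level changed over a few bins. The ratio over the pairs of each telomeric-side bin was 0.874 at 100 kb, 0.898 at 110 kb, 0.752 at 120 kb, 0.563 at 130 kb, 0.504 at 140 kb and 0.480 at 150 kb from the boundary bin. The same bins in WT had 0.322, 0.313, 0.263, 0.207, 0.213 and 0.207. The level therefore dropped across the same bins in both libraries, from a far higher start in deltaBor. In raw counts, where the bins differ in coverage, the bin at 120 kb had 0.797 in deltaBor and 0.267 in WT, and the bin at 130 kb had 0.471 in deltaBor and 0.166 in WT.

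The telomeric-side bins were divided at this drop, after seeing the maps, into the 7 bins 60 to 120 kb from the boundary bin (266 pairs) and the 34 bins beyond (595 pairs). In the nearer bins the raw ratio was 0.715 in deltaBor, 1.20 in Dup-LdeltaBor, 0.635 in Dup-C, 0.596 in Dup-L, 0.217 in Dup-S and 0.258 in WT. In the bins beyond it was 0.377 in deltaBor, 0.869 in Dup-LdeltaBor, 0.510 in Dup-C, 0.508 in Dup-L, 0.160 in Dup-S and 0.187 in WT. All 6 libraries had the higher level in the nearer bins, and relative to the level beyond, the difference was widest in deltaBor. After balancing, the nearer bins had 0.885 in deltaBor, 1.01 in Dup-LdeltaBor, 0.620 in Dup-C, 0.558 in Dup-L and 0.323 in WT, and the bins beyond had 0.487 in deltaBor, 0.790 in Dup-LdeltaBor, 0.548 in Dup-C, 0.516 in Dup-L and 0.246 in WT. In these bins beyond 120 kb, deltaBor was lower than Dup-L and Dup-C in both kinds of map, whereas in the nearer bins it was higher than both.

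The fold over WT split the same way. In deltaBor it was 2.77 (2.69 to 2.85) for the nearer bins and 2.01 (1.96 to 2.07) for those beyond, and 2.74 and 1.98 after balancing. In Dup-L the order was the opposite, with 2.31 (2.24 to 2.37) for the nearer bins and 2.72 (2.66 to 2.78) for those beyond, and 1.73 and 2.10 after balancing. In Dup-C it was 2.46 (2.38 to 2.53) and 2.73 (2.66 to 2.79), and 1.92 and 2.22 after balancing. Dup-LdeltaBor over WT had 4.65 in the nearer bins and 4.64 beyond, so this fold hardly differed between them. These comparisons share the WT library.

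**Figure D2:**
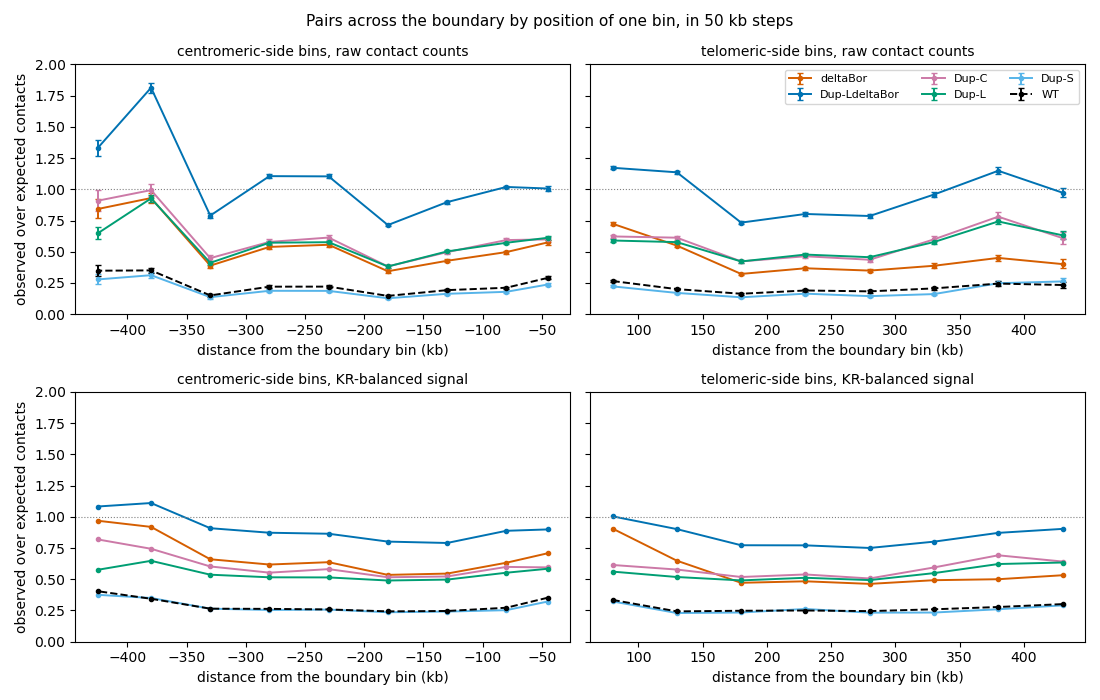
Observed-over-expected ratio in 50 kb steps from the boundary bin, for centromeric-side bins (left, negative kb) and telomeric-side bins (right), in raw counts with 95% counting intervals (top) and KR-balanced signal (bottom); lines are libraries and the dotted line marks 1. On the telomeric side the balanced deltaBor line falls to 0.472 in the step at 160 to 200 kb, against 0.906 at 60 to 100 kb, and runs below Dup-L and Dup-C from there on.

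Distance between the bins was the other axis along which the genotypes were compared. Pairs 100 to 190 kb apart (55 pairs) had a ratio of 0.767 in deltaBor, 1.15 in Dup-LdeltaBor, 0.600 in Dup-C, 0.578 in Dup-L, 0.218 in Dup-S and 0.265 in WT. Pairs 400 to 500 kb apart (396 pairs) had 0.443 in deltaBor, 1.00 in Dup-LdeltaBor, 0.587 in Dup-C, 0.568 in Dup-L, 0.182 in Dup-S and 0.203 in WT. The ratio of the shortest to the longest class was 1.73 in deltaBor (1.67 to 1.79), 1.15 in Dup-LdeltaBor (1.13 to 1.17), 1.02 in Dup-C (0.983 to 1.06), 1.02 in Dup-L (0.989 to 1.05), 1.20 in Dup-S (1.12 to 1.27) and 1.30 in WT (1.24 to 1.37). Relative to within-domain contacts, the crossing contacts thus declined with distance most in deltaBor, and were level between the end classes in Dup-L and Dup-C. After balancing these ratios were 1.77 in deltaBor, 1.19 in Dup-LdeltaBor, 1.00 in Dup-C, 1.02 in Dup-L, 1.24 in Dup-S and 1.30 in WT.

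The fold of deltaBor over WT was 2.90 at 100 to 190 kb, 2.40 at 200 to 290 kb, 2.24 at 300 to 390 kb and 2.18 at 400 to 500 kb. The short pairs are mostly pairs of the nearer telomeric-side bins, which made up 49 of the 55 pairs of the shortest class and 77 of the 396 of the longest. Within the nearer bins the fold was 2.96, 2.86, 2.58 and 2.67 over the same 4 classes, and within the bins beyond 120 kb it was 1.97, 2.04 and 2.00 over the last 3, with 2.32 from the 6 pairs of the first. At a given distance class the nearer bins were therefore always higher, and within the bins beyond 120 kb the last 3 classes lay close together.

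**Figure D3:**
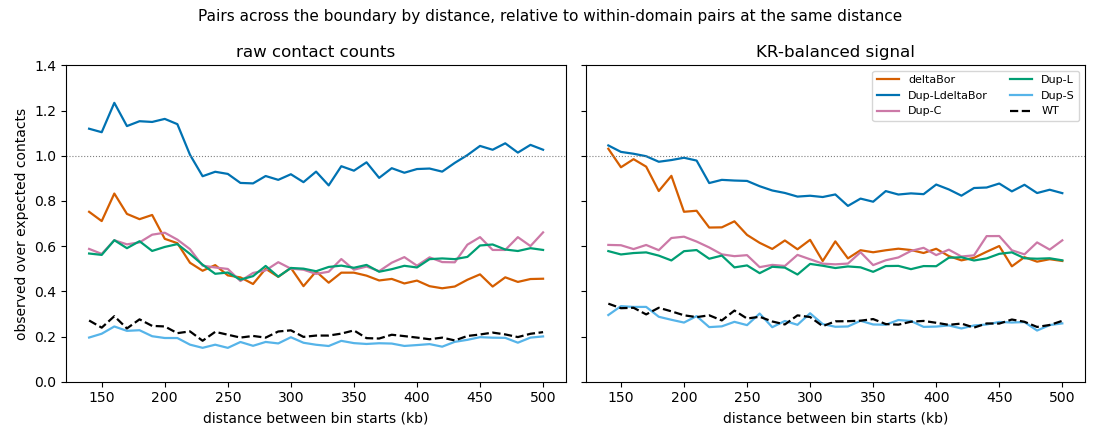
Observed-over-expected ratio at each distance between bin starts, for distances with at least 5 pairs, in raw counts (left) and KR-balanced signal (right); lines are libraries, WT is dashed and the dotted line marks 1. The deltaBor line declines over the range, to 0.443 at 400 to 500 kb in raw counts, against 0.767 at 100 to 190 kb, while Dup-L and Dup-C end close to where they began and cross above it in raw counts. The shortest distances hold mostly pairs of the telomeric-side bins up to 120 kb from the boundary bin.

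The duplication that stays on the telomeric side, Dup-S, gave a ratio 0.849-fold that of WT (0.829 to 0.870). Its gained segment lies inside the telomeric-side domain, which is part of the expectation, so this raw fold depends on the scale. The fold was 0.987 with the centromeric-side domain alone as expectation, 0.771 with the telomeric-side domain alone and 0.985 with the library total as scale. The median pair was 0.847-fold that of WT, and the median of all pairs of the map at these distances was 0.828-fold. After balancing both were nearer to 1, at 0.964 for the crossing pairs and 0.983 for all pairs, and the ratio was 0.960-fold. The medians of the crossing pairs thus lay close to those of all pairs, slightly above on raw counts and slightly below after balancing. Of 655 pairs with enough contacts, 32 (4.89%) were at least 1.5-fold higher and 168 (25.7%) at least 1.5-fold lower, beside 3.38% and 17.7% of all pairs. In the balanced maps 67 (10.2%) were higher and 107 (16.3%) lower, beside 3.88% and 4.43% of all pairs. Both shares of the crossing pairs exceeded the background in each kind of map. The median crossing pair held only 12 contacts in Dup-S and 17 in WT, and at such counts counting error spreads the folds of single pairs in both directions. How much of the excess this makes up was not tested. No pair reached a ratio of 1 in Dup-S or WT, beside 21.0% and 28.7% of all pairs at these distances on raw counts and 37.0% and 37.9% after balancing.

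The gained segment of Dup-S begins at the bin 370 kb from the boundary bin, so 55 of the pairs have 1 bin in it and none has 2. Those 55 pairs held 934 contacts in Dup-S and 1054 in WT, which gave a ratio 1.06-fold that of WT (0.967 to 1.16), and 0.913-fold after balancing. The 806 pairs with no bin in the gained segment were 0.835-fold (0.814 to 0.856), and 0.963-fold after balancing. The direction for the 55 pairs thus turned with balancing, and its raw interval includes 1. Both raw folds rest on the expectation from both domains, which includes the gained segment.

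Duplication across the boundary with the boundary kept, the comparison of Dup-L with WT, gave a ratio 2.55-fold that of WT (2.50 to 2.59), and 1.95-fold after balancing. In Dup-C it was 2.62-fold (2.57 to 2.67), and 2.10-fold after balancing. With bins of the Dup-L segment only, the folds were 2.11 in Dup-C and 1.98 in Dup-L, close to the balanced values. Of 849 pairs with enough contacts, 817 were at least 1.5-fold higher in Dup-L than in WT, beside 7.93% of all pairs, and 0 were 1.5-fold lower, beside 39.9%. Of 795 pairs, 753 were at least 1.5-fold higher in Dup-C than in WT, beside 8.17% of all pairs, and 0 were 1.5-fold lower, beside 53.8%. With the expectation set inside the partly duplicated domains, the median of all pairs was 0.714-fold that of WT in Dup-L and 0.642-fold in Dup-C on raw counts. After balancing it was 1.04-fold in Dup-L and 1.05-fold in Dup-C. In the balanced maps 702 pairs were at least 1.5-fold higher in Dup-L, beside 8.07% of all pairs, and 1 was lower, beside 2.31%. In Dup-C 701 were higher, beside 11.2%, and 0 were lower, beside 5.41%. Without the minimum of 20 contacts, 826 of the 861 pairs were at least 1.5-fold higher in Dup-L and 809 in Dup-C on raw counts.

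Over all crossing pairs, the fold over WT in both of these duplications was larger in the longest distance class than in the shortest. In Dup-L it was 2.19 at 100 to 190 kb, 2.42 at 200 to 290 kb, 2.44 at 300 to 390 kb and 2.80 at 400 to 500 kb, and 1.67, 1.84, 1.91 and 2.12 after balancing. In Dup-C it was 2.27, 2.51, 2.46 and 2.89, and 1.78, 1.97, 2.06 and 2.31 after balancing. In both the fold was smallest in the shortest class and largest in the longest, the reverse of deltaBor, although in Dup-C the middle classes were out of order on raw counts. The difference between these trends was not tested.

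The bins nearest to the boundary had the smallest folds in both. On the centromeric side, Dup-L over WT was lowest at 40 kb (2.05), then at 50 kb and 60 kb (2.31), from the boundary bin, and Dup-C over WT at 50 kb (2.03) and 40 kb (2.07). On the telomeric side the bin at 60 kb was among the 3 lowest, with 2.11 in Dup-C and 2.01 in Dup-L, although the lowest was the bin at 220 kb, with 2.02 in Dup-C and 1.90 in Dup-L. In the balanced maps the bin at 60 kb was the lowest of the telomeric side in both, with 1.65 in Dup-C and 1.56 in Dup-L. The largest telomeric-side fold was at 130 kb in both, with 3.42 in Dup-C and 3.24 in Dup-L, and 2.73 and 2.42 after balancing. Were the copies arranged head to tail, the same bins would also meet across the junction. The path would be 1060 to 1460 kb long for Dup-L and 1250 to 1650 kb long for Dup-C, and the maps would place these contacts in the same pairs.

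At the edge of the Dup-L segment, 3 pairs have 1 bin in the segment and 1 bin outside it. They had a ratio 0.779-fold that of WT in Dup-L (0.575 to 1.06; 95 contacts in Dup-L and 85 in WT), and 0.893-fold after balancing. In Dup-LdeltaBor they were 1.37-fold (1.06 to 1.79; 197 contacts), and 1.82-fold after balancing. The other 858 pairs, with both bins in the segment, were 2.56-fold that of WT in Dup-L and 4.67-fold in Dup-LdeltaBor. Both values for the 3 pairs lie far below those of the 858, on few contacts.

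Dup-LdeltaBor, which lacks the boundary within the duplication, had a ratio 1.83-fold that of Dup-L (1.81 to 1.84), and 1.63-fold after balancing. The contact sums of bins inside the gained segment also differed between these libraries. The bin 110970001 to 110980000, inside it, held 43772 contacts for Dup-L, 60191 for Dup-LdeltaBor and 23413 for WT. The bin 110950001 to 110960000, outside it, held 15237, 15056 and 14791, given by library as before. How much of the raw fold goes with this difference rather than with the boundary was not tested. All 861 pairs had enough contacts, and 709 were at least 1.5-fold higher in Dup-LdeltaBor, beside 4.43% of all pairs, while 0 were 1.5-fold lower, beside 16.3%. Of the 861 pairs, 860 were above 1-fold. The median of all pairs was 0.840-fold that of Dup-L on raw counts and 1.04-fold after balancing, and after balancing 564 pairs were at least 1.5-fold higher, beside 7.05% of all pairs, and 0 lower, beside 2.44%. The number of pairs that reached a ratio of 1 was 389 in Dup-LdeltaBor, 56 in Dup-C and 41 in Dup-L, beside 18.0%, 18.3% and 19.2% of all pairs and 43.8%, 45.4% and 45.4% of within-domain pairs. In the balanced maps it was 153 in Dup-LdeltaBor, 5 in Dup-C and 1 in Dup-L, beside 42.1%, 39.1% and 39.0% of all pairs.

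The fold of Dup-LdeltaBor over Dup-L had the same form as that of deltaBor over WT. It was 1.99 at 100 to 190 kb, 1.87 at 200 to 290 kb, 1.83 at 300 to 390 kb and 1.76 at 400 to 500 kb, and 1.83, 1.69, 1.62 and 1.56 after balancing. It was 2.02 (1.99 to 2.05) for the telomeric-side bins 60 to 120 kb from the boundary bin and 1.71 (1.69 to 1.73) for those beyond, and 1.81 and 1.53 after balancing. Within the nearer bins the raw fold was 2.04, 2.00, 2.08 and 1.97 over the 4 distance classes. Within the bins beyond 120 kb it was 1.58 (from 6 pairs), 1.75, 1.71 and 1.70. Neither set thus had the steady decline over the 4 classes that all pairs together had. The largest telomeric-side fold was again at the bin 120 kb from the boundary bin, with 2.17 on raw counts and 1.95 after balancing. The 2 comparisons use 4 different libraries. In each of the 4 distance classes the fold was smaller in Dup-LdeltaBor over Dup-L than in deltaBor over WT, and this difference was not tested.

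Against WT, Dup-LdeltaBor had a ratio 4.65-fold as high (4.58 to 4.73). This fold was 3.17 after balancing, 3.27 with bins of the Dup-L segment only, and 7.55 with the expectation from the centromeric-side domain alone. Of the 861 pairs, 859 were at least 1.5-fold higher, beside 11.1% of all pairs, and 0 were 1.5-fold lower, beside 66.7%. In the balanced maps 859 were again higher, beside 11.4% of all pairs, and 0 were lower, beside 3.07%. The median of all pairs was 0.557-fold that of WT on raw counts and 1.09-fold after balancing. Every one of the 861 pairs was above 1-fold in both kinds of map, with a lowest pair of 1.33-fold.

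**Figure D4:**
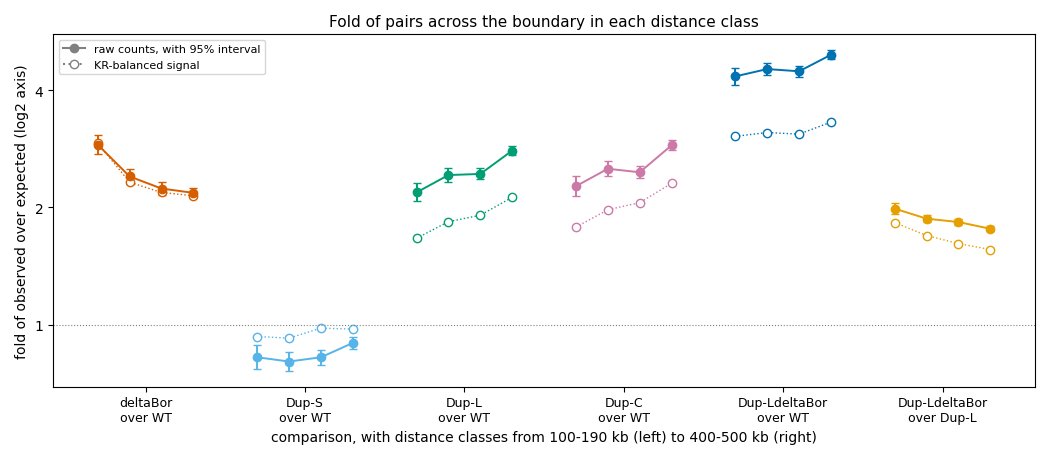
Fold of the observed-over-expected ratio in each of the 6 comparisons (log2 axis), by distance class from 100-190 kb (left) to 400-500 kb (right); filled points are raw counts with 95% counting intervals and open points are KR-balanced signal. The fold is lower at longer distance in deltaBor over WT (2.90 to 2.18) and in Dup-LdeltaBor over Dup-L (1.99 to 1.76), and higher at longer distance in Dup-L over WT (2.19 to 2.80) and Dup-C over WT (2.27 to 2.89). The classes differ in position too, since the shortest holds mostly pairs of the telomeric-side bins up to 120 kb from the boundary bin.

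The pairs with the highest ratio in each library, among those with at least 20 contacts, were only partly shared between libraries. In deltaBor the highest was 111340001 to 111350000 with 111500001 to 111510000, 160 kb apart, with 148 contacts in deltaBor, 459 in Dup-LdeltaBor, 90 in Dup-C, 180 in Dup-L, 38 in Dup-S and 61 in WT. Its ratio was 1.44 in deltaBor, 2.05 in Dup-LdeltaBor, 0.991 in Dup-C, 0.999 in Dup-L and 0.491 in WT. This pair joins the stretch bin next to the boundary with the bin 120 kb beyond it. On raw counts it was above the within-domain mean in both libraries without the boundary. After balancing its ratio in deltaBor was 1.07.

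In Dup-LdeltaBor the highest pair was 111300001 to 111310000 with 111500001 to 111510000, with 106 contacts in deltaBor, 523 in Dup-LdeltaBor, 105 in Dup-C, 152 in Dup-L, 36 in Dup-S and 41 in WT. Its ratio was 2.61 in Dup-LdeltaBor, 1.35 after balancing, and 0.371 in WT. The bin 111500001 to 111510000 thus took part in the highest raw pair of both libraries that lack the boundary. Its coverage was also high, with 143.9% of the median bin in deltaBor and 146.6% in WT, second in WT only to the bin at 370 kb among the bins of the pairs. After balancing, its level in deltaBor (0.752) was below those of the bins at 100 kb and 110 kb, and the largest telomeric-side fold over WT was at 90 kb (2.95), with 2.86 at 120 kb.

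In Dup-L and Dup-C, 2 of the 3 highest pairs each had the telomeric-side bin 111750001 to 111760000, 370 kb from the boundary bin. The pair of that bin with 111340001 to 111350000, 410 kb apart, held 47 contacts in deltaBor, 262 in Dup-LdeltaBor, 86 in Dup-C, 159 in Dup-L, 35 in Dup-S and 45 in WT. Its ratio was 0.743 in deltaBor, 1.54 in Dup-C, 1.36 in Dup-L and 0.549 in WT. After balancing it was 0.855 in Dup-C and 0.719 in Dup-L, so the value above 1 was seen on raw counts only. That bin had the highest coverage of all bins in the pairs in WT, with 160.2% of the median bin.

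The lowest bins on raw counts were shared between genotypes. The telomeric-side bin 111550001 to 111560000 was lowest in all 6 libraries, with 0.187 in deltaBor, 0.431 in Dup-LdeltaBor, 0.238 in Dup-C, 0.242 in Dup-L, 0.0794 in Dup-S and 0.0872 in WT. The centromeric-side bin 111220001 to 111230000 was lowest in 5 of them, with 0.150 in deltaBor and 0.0672 in WT, and its neighbour 111210001 to 111220000 was lowest in Dup-LdeltaBor, with 0.317. In WT these bins held 51.5%, 30.6% and 31.0% of the contacts of the median bin. After balancing, 111550001 to 111560000 was the lowest of its side in no library.

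Pair by pair, the raw ratios of the libraries were alike, with Spearman correlations over the 861 pairs of 0.721 to 0.917, highest between Dup-L and Dup-LdeltaBor. The pairs share bins, and the bins share their coverage between libraries. After balancing the correlations were 0.229 to 0.657, and the highest was between deltaBor and Dup-LdeltaBor, the 2 libraries without the boundary, with the next highest 0.401.

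The pairs were also set beside pairs of other places. Laid in the same shape across the outer end of the centromeric-side domain, pairs had a balanced ratio of 0.374 in deltaBor, 0.418 in Dup-LdeltaBor, 0.424 in Dup-C, 0.406 in Dup-L, 0.380 in Dup-S and 0.373 in WT. Across the outer end of the telomeric-side domain it was 0.611 in deltaBor, 0.646 in Dup-LdeltaBor, 0.580 in Dup-C, 0.585 in Dup-L, 0.579 in Dup-S and 0.567 in WT. The range over the genotypes was therefore narrow at both outer ends, against 0.261 to 0.864 across the boundary. In WT the boundary had the lowest level of the 3 places, and in Dup-LdeltaBor the highest. On raw counts the outer ends also varied, from 0.134 in Dup-LdeltaBor to 0.284 in WT at the centromeric outer end, which lies outside every gained segment, and from 0.409 in Dup-C to 0.687 in deltaBor at the telomeric one.

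Pairs with both bins inside the same stretch stayed near the within-domain mean after balancing. In the centromeric-side stretch (703 pairs) the balanced ratio was 1.12 in deltaBor, 0.983 in Dup-LdeltaBor, 1.17 in Dup-C, 1.06 in Dup-L, 1.13 in Dup-S and 1.16 in WT. In the telomeric-side stretch (595 pairs) it was 0.953 in deltaBor, 1.03 in Dup-LdeltaBor, 1.04 in Dup-C, 1.03 in Dup-L, 0.996 in Dup-S and 1.00 in WT. Between pairs within the centromeric-side stretch and crossing pairs the gap was 0.983 to 0.864 in Dup-LdeltaBor and 1.16 to 0.272 in WT. The stretches are parts of the domains that set the expectation, so values near 1 are partly built in.

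**Figure D5:**
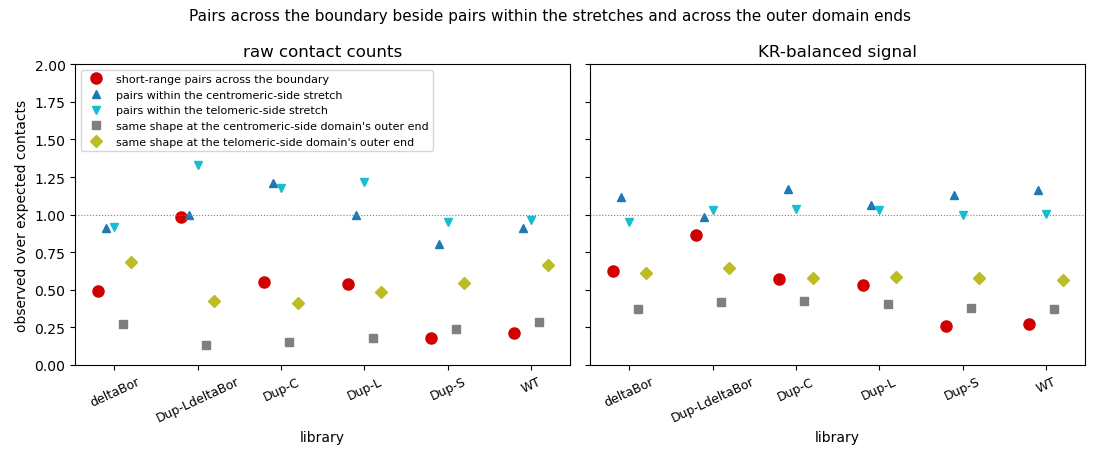
Observed-over-expected ratio of the pairs across the boundary (red circles), of pairs within each stretch (blue triangles) and of pairs in the same shape across the outer ends of the domains (grey squares and olive diamonds), for the 6 libraries in raw counts (left) and KR-balanced signal (right). After balancing, the red circles range from 0.261 in Dup-S to 0.864 in Dup-LdeltaBor while each of the other sets keeps to a narrow band.

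On raw counts, the level changed little at the distance limit of the rule and clearly at the telomeric-side limit. Pairs exactly 500 kb apart had a raw ratio of 0.456 in deltaBor, 1.03 in Dup-LdeltaBor, 0.583 in Dup-L, against 0.219 in WT, and pairs 510 kb apart, just outside, had 0.476 in deltaBor, 1.02 in Dup-LdeltaBor, 0.604 in Dup-L, against 0.209 in WT. On the telomeric side the first bin inside had 0.696 in deltaBor, 1.06 in Dup-LdeltaBor, 0.552 in Dup-C, 0.525 in Dup-L, 0.210 in Dup-S and 0.262 in WT. The next bin toward the boundary, just outside, had 0.912 in deltaBor, 1.41 in Dup-LdeltaBor, 0.790 in Dup-C, 0.687 in Dup-L, 0.291 in Dup-S and 0.333 in WT, and was thus the higher of the pair of bins in all 6 libraries. On the centromeric side the last bin inside had 0.694 in deltaBor and 0.369 in WT, and the next one outside had 0.617 in deltaBor and 0.335 in WT. These limits were read on raw counts only, where neighbouring bins differ in coverage. For example, deltaBor had 0.830 at 100 kb and 0.585 at 110 kb on raw counts, but 0.874 and 0.898 after balancing. The step at the telomeric-side limit can therefore not be told apart from a difference in coverage.

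The authors' deposited comparison maps, made from scaled raw maps, were read for the same pairs. In the authors' deposited difference maps, all 861 pairs were above 0 in each of 3 maps: Dup-LdeltaBor minus Dup-L, beside 61.17% of all pairs at these distances, Dup-C minus WT, beside 51.62%, and Dup-L minus WT, beside 61.54%. In the authors' deposited map of deltaBor minus WT, 827 pairs (96.05%) were above 0, beside 31.84% of all pairs. In the authors' deposited map of Dup-S minus WT, 454 pairs (52.73%) were above 0, beside 50.09%, so the scaling of that map put Dup-S and WT level, where the within-domain scaling put Dup-S lower. In the authors' deposited log2 map of Dup-LdeltaBor over Dup-L the median of the pairs was 1.04, and 860 were above 0. The authors' deposited log2 map of deltaBor and WT has WT on top, and its median over the pairs was -1.01, that is, higher in deltaBor.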

How the data were processed

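Capture Hi-C maps of 6 mouse limb bud libraries at E12.5, 1 per genotype, were analysed. The submitters' processing notes name Bowtie2 2.2.6 and the mm9 build. Names of the deposited maps mark 10 kb bins and a mapping quality of 30; the sources used here do not say whether duplicate reads were removed. For each library the authors deposited raw contact counts per bin pair and a signal after KR balancing. They also deposited 2 maps of log2 ratios and 5 maps of differences (a score that can be negative), made with scaling factors that the sources used here do not give.

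Raw counts were the main values, pairs not listed being 0. Raw positions of Dup-C and Dup-S are offsets from the map's start and were placed on the same 587 bins. Altered segments came from contact sums over WT (circular binary segmentation statistic, pseudocount 0.5). Domains came from WT insulation minima (500 kb diamond, prominence of at least 0.3 log2). Pairs of bins under 2 bins apart were left out of the contact sums and of the insulation. Expected counts were same-distance means within the domains. Calls used a 1.5-fold threshold and at least 20 contacts in both libraries together, and balanced signals were called on the same pairs. Bins named as highest, lowest or most changed had at least 10 pairs. Named were 4 distance classes, the 3 most and least changed bins per stretch and the 3 highest pairs per library. With 1 library per genotype no test was made. Depth ran from 4144258 to 8965219 contacts. For the folds 10 alternatives were tried, 3 of them chosen after seeing the data, and for the counts of pairs balanced signal and no minimum of contacts. The pairs and regions were chosen with earlier results of these data known. The procedure was tested on simulated maps of independent Poisson counts around a same-distance mean. These had no differences in coverage between bins or in copy number, so the effect of such differences was not tested there. Python 3.11.15, numpy 2.4.6, pandas 2.3.3, scipy 1.17.1 and matplotlib 3.10.9 were used.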

Additional observations from a re-analysis of the deposited data

How the results depend on the processing

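None of the 6 folds over all crossing pairs changed direction under the 10 alternatives run on them. The fold of the 55 pairs with 1 bin in the Dup-S segment did, with 1.06 on raw counts and 0.913 after balancing. Over these alternatives the fold of the observed-over-expected ratio ran from 2.21 to 2.56 for deltaBor over WT, from 0.752 to 0.987 for Dup-S over WT, from 1.95 to 3.38 for Dup-L over WT, from 2.10 to 3.22 for Dup-C over WT, from 3.17 to 7.55 for Dup-LdeltaBor over WT and from 1.63 to 2.24 for Dup-LdeltaBor over Dup-L. Values that moved beyond the counting interval follow in this order: Dup-S over WT, Dup-L over WT, Dup-C over WT, Dup-LdeltaBor over WT, Dup-LdeltaBor over Dup-L. They were 0.960, 1.95, 2.10, 3.17 and 1.63 with KR-balanced signal. They were 0.752, 1.98, 2.11, 3.27 and 1.65 with bins of the Dup-L segment only (858 pairs). They were 0.784, 2.16, 2.30, 3.66 and 1.70 with domains from a 200 kb diamond. They were 0.815, 2.33, 2.41, 4.43 and 1.90 with pairs at most 300 kb apart (231 pairs), where deltaBor over WT was 2.56. They were 0.985, 3.09, 3.22, 6.03 and 1.95 with the library total as scale, where deltaBor over WT was 2.21. In alternatives chosen after seeing the data, they were 0.987, 3.38, 3.11, 7.55 and 2.24 with the centromeric-side domain alone, and 0.771, 2.17, 2.35, 3.65 and 1.68 with the telomeric-side domain alone. Leaving the bin lost in deltaBor and its neighbours out of the domains, also chosen after seeing the data, moved only Dup-LdeltaBor over Dup-L among the 6 folds, to 1.80. The mean of pair ratios and leaving out 10 bins of low coverage, of which 0 lie in a crossing pair, moved none of the 6. The cause was not tested. Without the filter on low counts, deltaBor had 4 pairs at least 1.5-fold lower, against 1 with it, and Dup-S had 66 higher and 244 lower, against 32 and 168. With KR-balanced signal Dup-S had 67 higher and 107 lower, and Dup-L had 1 lower, against 0 on raw counts. The contacts per pair limit single pairs most in Dup-S, with a median of 12. No paired analysis was possible because each genotype has 1 library.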
